A study of Homo sapiens with 6 samples.

Results

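The genes described here are 43 genes of ribosome biogenesis and the nucleolus, chosen by name. All 43 had a locus among the 19170 loci of the deposited table, and all 43 passed the filter on low values. They code for subunits and cofactors of RNA polymerase I, small nucleolar ribonucleoproteins, assembly factors of the small and the large ribosomal subunit, and abundant nucleolar proteins. RNA was measured in 6 neuroblastoma cell lines, a childhood tumour of the sympathetic nervous system, with 1 library per line. The MYCN-amplified lines are CHP134, Kelly, SK-N-DZ and BE(2)-C, and the MYCN-non-amplified lines are SY5Y (also SH-SY5Y in the labels) and SK-N-AS. No treatment is named for any line. All were cultured with fetal calf serum, DMEM being the medium of 4 lines and RPMI that of CHP134 and Kelly. The cell lines stand in for replicates, so that a difference between the groups is set against the spread between lines. Both RPMI lines are MYCN-amplified.

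Ribosomes are built in the nucleolus. RNA polymerase I transcribes a long precursor RNA, small nucleolar ribonucleoproteins modify it and guide its cleavage, and chains of assembly factors turn its parts into the small and the large subunit. Genes of this pathway are known targets of MYC and of its relative N-Myc, the product of MYCN, which bind with their partner MAX to a short DNA motif called the E-box. MYCN amplification raises N-Myc in neuroblastoma, whereas many lines without it express MYC.

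The values are taken to be FPKM, fragments scaled to transcript length and to the size of the library. Their unit is not named, and the number of reads behind them is unknown. The median over the tested loci was 6.78 to 8.05 FPKM in the MYCN-amplified lines, with the lowest in SK-N-DZ, and 8.49 and 8.64 FPKM in the others. The RNU4-1 and RNU4-2 loci, which encode a spliceosomal small nuclear RNA, took 22.6% to 41.0% of the FPKM sum in the MYCN-amplified lines, against 46.8% in SY5Y and 54.6% in SK-N-AS. The sympathetic regulator HAND2 (65.8 to 183 FPKM) was present in every line. TH, the first enzyme of catecholamine synthesis, exceeded 1 FPKM only in Kelly. SK-N-AS stood apart in PTPRC, a leukocyte marker (108 FPKM, against at most 0.0658 FPKM elsewhere), and in KRT18 (36.0 FPKM) and COL1A1 (46.3 FPKM). Neither COL1A2 nor PDGFRB peaked in that line. COL1A2 stayed below 1 FPKM throughout, with its top value in CHP134 (0.716 FPKM, SK-N-AS 0.0823 FPKM). For PDGFRB the top value belonged to BE(2)-C (16.9 FPKM, SK-N-AS 14.1 FPKM). The part of PTPRC, KRT18 and COL1A1 in the results was not tested. In bulk RNA, few cells of another type and little RNA per cell cannot be told apart. CD68 is listed in a locus merged with EIF4A1 and cannot be read as a marker. EPCAM, an epithelial marker, was below 0.3 FPKM in every line.

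MYCN RNA was at 505 FPKM in CHP134, 571 in BE(2)-C, 184 in SK-N-DZ and 774 in Kelly, against 0.921 in SY5Y and 0.208 in SK-N-AS. MYC RNA was at 0.276 FPKM in CHP134 and 0.209 in BE(2)-C, and SK-N-DZ and Kelly had it listed at 0, against 20.3 FPKM in SY5Y and 20.7 in SK-N-AS. High MYCN and high MYC were not found together in any line, and SK-N-DZ had the least MYCN of the amplified lines.

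Most of the ribosome biogenesis genes had somewhat higher RNA levels in the MYCN-amplified lines, but none of the 43 passed the test. The log2 fold change, MYCN-amplified over MYCN-non-amplified, was positive in 34 genes and negative in 9, with a median of 0.32. Over all 12870 tested loci the median was -0.09, and 44.4% of the loci had a positive value. The test was limma on log2(FPKM + 0.5), fitted over all tested loci. A call needed a log2 fold change beyond 1 in either direction together with an adjusted p (Benjamini-Hochberg) under 0.05. By this rule 0.14% of the tested loci were higher and 0.365% lower, against 0 of 43 genes in either direction. The lowest adjusted p among the 43 was 0.188. At an unadjusted p below 0.05, 10 genes were higher, where 5.48% of all tested loci were, and 1 was lower, where 9.46% of them were. Both together made 25.6% of the genes and 14.9% of all tested loci. Log2 fold changes above 1 were found in 5 genes (NCL, NPM1, RRP9, UTP20 and BOP1), where 6.95% of all tested loci had one, and a value below -1 only in WDR74, where 12.8% did.

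In 14 genes (32.6%) all 4 MYCN-amplified lines lay above both other lines, where 10.5% of all tested loci showed this. In 1 gene, WDR74, all 4 lay below both others, where 16.4% of the tested loci did. With libraries scaled to equal sums the first count was 24 (21.3% of all tested loci). The second was 4 (17.8%) with equal sums without RNU4-1 and RNU4-2 and 3 (13.4%) after quantile normalization. In 7 genes no MYCN-amplified line exceeded both SK-N-AS and SY5Y. The share of all tested loci with this pattern was not computed, so that the count cannot be called particular to these genes. The spread of a gene over the 6 lines was modest, with a median ratio of 2.36 between its highest and its lowest line, and 2.87 over all tested loci with a value above 0 in each line. The range went from 1.44 in DDX21 to 6.77 in RRP9.

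**Figure D1:**
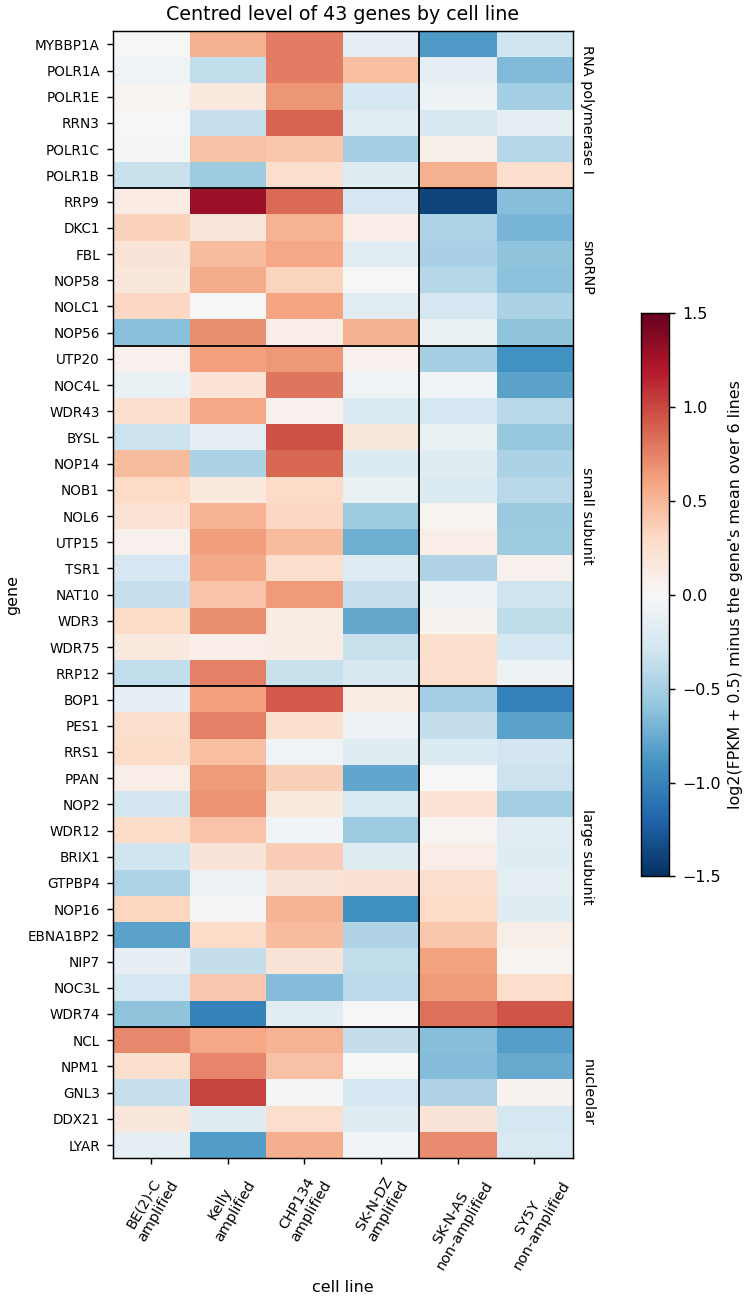
Level of each of the 43 genes in each line as colour, in log2(FPKM + 0.5) minus the gene's mean over the 6 lines, with genes grouped by role and the MYCN-amplified lines to the left of the vertical line. Kelly and CHP134 hold the highest value in 17 genes each, and SY5Y holds the lowest in 19.

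The genes did not follow the order of MYCN among the amplified lines in a simple way. Kelly had the highest value over all 6 lines in 17 genes (18.8% of all tested loci were highest there) and CHP134 in another 17 (22.1%), although CHP134 ranked below BE(2)-C in MYCN. BE(2)-C had the highest value in 2 genes (11.3%), SK-N-DZ in 0 (9.58%), SY5Y in 1 (14.3%) and SK-N-AS in 6 (23.9%). These counts moved with the scaling, for CHP134 between 10 after quantile normalization and 24 with equal sums, for BE(2)-C between 0 with equal sums and 8 after quantile normalization, for SK-N-DZ up to 4 and for SK-N-AS between 0 and 7. Kelly held 14 to 17 and SY5Y 1 under each of the 5 scalings. Within the amplified group, CHP134 was highest in 20 genes (32.9% of all tested loci), Kelly in 18 (30.1%), BE(2)-C in 3 (21.7%) and SK-N-DZ in 2 (15.3%). CHP134 and Kelly are also the lines grown in RPMI, and line and medium cannot be told apart. SK-N-DZ, with the least MYCN, was the lowest of the 4 amplified lines in 24 of 43 genes (55.8%), where it was lowest in 32.9% of all tested loci. The SK-N-DZ count also depended on the scaling and was 15 after quantile normalization, where the share over all tested loci was 23.4%, and 9 when libraries were scaled to equal sums without RNU4-1 and RNU4-2, where that share was 15.9%. On the deposited values BE(2)-C was the lowest amplified line in 12 genes (31.9% of all tested loci), Kelly in 6 (17.2%) and CHP134 in 1 (18.0%). With libraries scaled to equal sums BE(2)-C was lowest of the 4 in 18 genes (43.9%) and SK-N-DZ in 16 (24.2%). With equal sums without RNU4-1 and RNU4-2, BE(2)-C was lowest of them in 17 genes (34.9%) and Kelly in 11 (22.7%), both more often than SK-N-DZ.

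SY5Y had the lowest value of all lines in 19 genes (44.2%), where it was lowest in 11.9% of all tested loci. The other lines were lowest less often, SK-N-DZ in 9 genes (23.7% of all tested loci), BE(2)-C in 5 (22.0%), Kelly in 5 (12.5%), CHP134 in 1 (13.0%) and SK-N-AS in 4 (16.9%). With libraries scaled to equal sums this order turned, with SK-N-AS lowest in 18 genes (39.0% of all tested loci) and SY5Y in 14 (9.01%). Under the other scalings SY5Y remained the line most often lowest, in 18 to 25 genes.

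After subtracting each gene's mean over the lines, the average over the 43 genes on the log2 scale was 0.38 in CHP134, -0.01 in BE(2)-C, -0.21 in SK-N-DZ and 0.28 in Kelly, against -0.36 in SY5Y and -0.08 in SK-N-AS. SK-N-DZ thus lay below SK-N-AS on the deposited values. Over all tested loci the same average was -0.19 in SK-N-DZ and 0.10 in SK-N-AS. Relative to it, the 43 genes stood at 0.33 in CHP134, 0.09 in BE(2)-C, -0.02 in SK-N-DZ and 0.23 in Kelly, against -0.45 in SY5Y and -0.18 in SK-N-AS. The 4 MYCN-amplified lines were then above both others. They were so too after quantile normalization, where SK-N-DZ stood at 0.00155 and SK-N-AS at -0.16. The 6 lines form separate groups by MYCN, so that no correlation with MYCN was computed across them, and 4 lines are too few for one within the group.

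SK-N-AS and SY5Y had nearly equal MYC RNA but not equal levels of these genes. SK-N-AS was above SY5Y in 37 of 43 genes (86.0%), where it was above in 53.6% of all tested loci, with a median difference of 0.33 on the log2 scale over the 43 genes and 0.05 over all tested loci. When the libraries were scaled to equal sums, which include RNU4-1 and RNU4-2, the number was 19 of 43 and the share over all tested loci 27.5%. Relative to all tested loci, the 43 genes then averaged -0.24 in SK-N-AS and -0.47 in SY5Y. There is 1 library of each line, so that this difference has no replicate check.

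**Figure D2:**
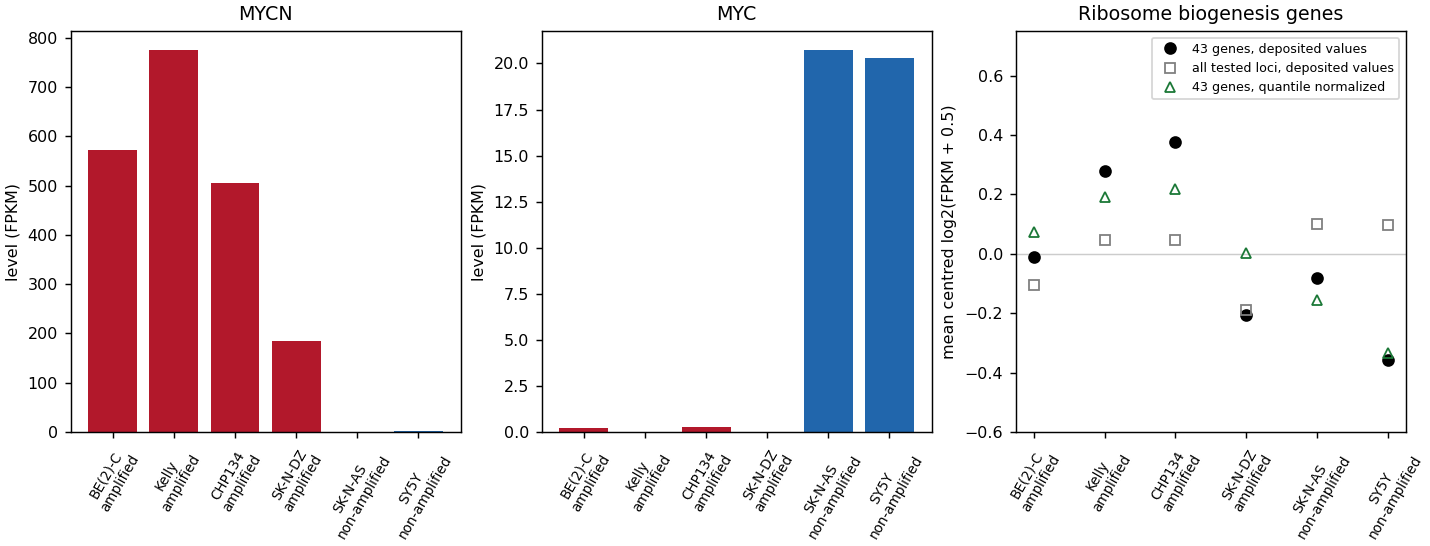
RNA levels of MYCN and MYC in FPKM as bars (red for the 4 MYCN-amplified lines, blue for the 2 MYCN-non-amplified lines), and the mean centred level on the log2 scale of the 43 genes as deposited (black) and after quantile normalization (green) and of all tested loci (grey). On the deposited values the 43 genes lie highest in CHP134 (0.38) and Kelly (0.28) and lowest in SY5Y (-0.36), and SK-N-DZ (-0.21) lies close to the level of all tested loci in that line (-0.19).

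The promoters of these genes were searched for the E-box, spelled CACGTG, which reads the same on both strands. RefSeq promoter windows of 300 bases, from 250 before to 50 after a transcription start in GRCh38.p14, were at hand for 37 of the 43 genes. POLR1E, NOP58, NOLC1, RRP12, BOP1 and RRS1 had none. The motif occurred in a window of 16 genes (43.2%), where 8.77% of all 27305 genes with a window held it, and 13.3% of the 6613 genes whose own locus was tested. Of 81 further ribosome biogenesis genes with a window, 28 (34.6%) held it. A second motif, CACGCG on either strand, which shares no full match with the first, was in a window of 13 of the 37 genes (35.1%), of 23 of the 81 further genes (28.4%), of 23.9% of the genes whose own locus was tested and of 13.5% of all genes. A match is a stretch of letters and not a measured binding site.

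In 12 of the 16 genes with the motif, an E-box began within 30 bases of the start, whatever their fold change. The same share was not computed for other genes with the motif, so that this place cannot be called particular to these genes. The stretches around it are shown for those genes with the motif whose unadjusted p was below 0.05 and for NOC3L, to let their values be read beside the sequence, in lower case with the E-box in capitals, 5′ to 3′ on the strand of the gene and with positions in GRCh38.p14.
FBL, chr19:39846356-39846385, minus strand: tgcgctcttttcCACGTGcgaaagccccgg
RRP9, chr3:51941892-51941921, minus strand: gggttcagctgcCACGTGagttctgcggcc
UTP20, chr12:101280083-101280112, plus strand: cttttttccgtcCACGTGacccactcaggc
PES1, chr22:30591880-30591909, minus strand: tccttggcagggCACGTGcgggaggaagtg
MYBBP1A, chr17:4555340-4555369, minus strand: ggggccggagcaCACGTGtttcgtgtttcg
NOC3L, chr10:94362903-94362932, minus strand: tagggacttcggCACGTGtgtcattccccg
Counted from the first transcribed base as 0, the motif begins at 6 in FBL, -5 in RRP9, -10 in UTP20, 13 in PES1, 27 in MYBBP1A and 19 in NOC3L. NOC3L is shown since it had a negative fold change with an E-box at a like place. NCL, NPM1, DKC1 and WDR74, which were also among the genes with the lowest p, had no CACGTG in their windows. The median log2 fold change was 0.44 in the 16 genes with the motif, of which 13 were positive, and 0.25 in the 21 without it, of which 16 were positive.

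**Figure D3:**
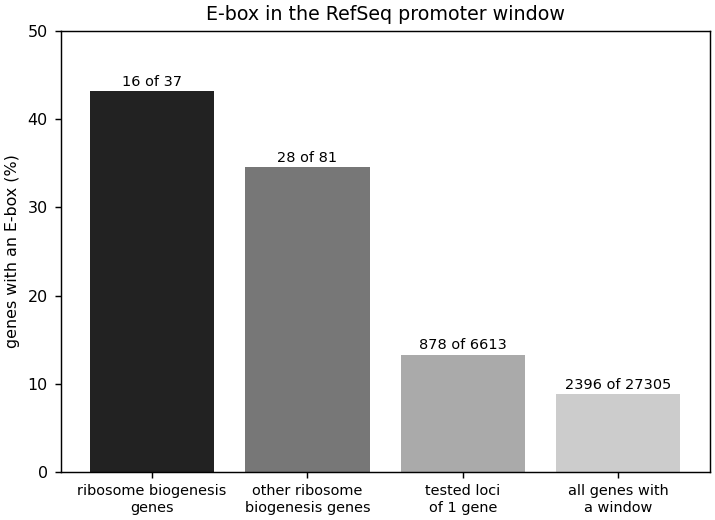
Share of genes, in percent, with an E-box in a RefSeq promoter window, for the ribosome biogenesis genes, further genes of the pathway, genes whose own locus was tested and all genes with a window; the number of genes stands over each bar. The share is 43.2% in the first set, 34.6% in the further genes of the pathway, 13.3% in the genes whose own locus was tested and 8.77% in the last.

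Of the 5 genes of abundant nucleolar proteins, 4 had a positive log2 fold change (median 0.30), and in NPM1 and NCL the groups did not overlap. NPM1 encodes nucleophosmin, a chaperone of the granular part of the nucleolus. It was at 2955 FPKM in CHP134, 2567 in BE(2)-C, 2185 in SK-N-DZ and 3609 in Kelly, against 1296 in SY5Y and 1387 in SK-N-AS. The groups did not overlap (log2 fold change 1.05, standard error 0.32, limma adjusted p = 0.212). GENCODE 44 names 49 pseudogenes after NPM1, so that its level may include or lack reads shared with near-identical copies. NCL encodes nucleolin, an RNA-binding protein that acts in precursor RNA synthesis and folding. It was at 285 FPKM in CHP134, 328 in BE(2)-C, 154 in SK-N-DZ and 297 in Kelly, against 112 in SY5Y and 128 in SK-N-AS. SK-N-DZ lay much closer to SK-N-AS than to the other amplified lines. The log2 fold change of NCL was 1.09 (standard error 0.35, adjusted p = 0.227). The NCL gene holds 3 snoRNA genes in GENCODE 44, which the libraries, made without poly-A selection, could also contain.

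The 3 other nucleolar genes had overlapping groups. GNL3 encodes nucleostemin, a GTP-binding protein of dividing cells. It was at 67.1 FPKM in CHP134, 53.4 in BE(2)-C, 56.4 in SK-N-DZ and 138 in Kelly, against 70.1 in SY5Y and 49.5 in SK-N-AS. Kelly stood far above the other 5 lines (log2 fold change 0.30, standard error 0.43). DDX21, an RNA helicase of the nucleolus, had 113 FPKM in CHP134, 106 in BE(2)-C, 82.8 in SK-N-DZ and 82.9 in Kelly, against 78.1 in SY5Y and 108 in SK-N-AS. It had the narrowest range of the 43 genes (log2 fold change 0.05, standard error 0.27). LYAR, a nucleolar zinc finger protein, was at 30.7 FPKM in CHP134, 18.7 in BE(2)-C, 20.3 in SK-N-DZ and 11.4 in Kelly, against 17.8 in SY5Y and 34.5 in SK-N-AS. It was highest in SK-N-AS and lowest in Kelly. Its log2 fold change was -0.37 (standard error 0.45), and 0.10 without SK-N-AS.

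**Figure D4:**
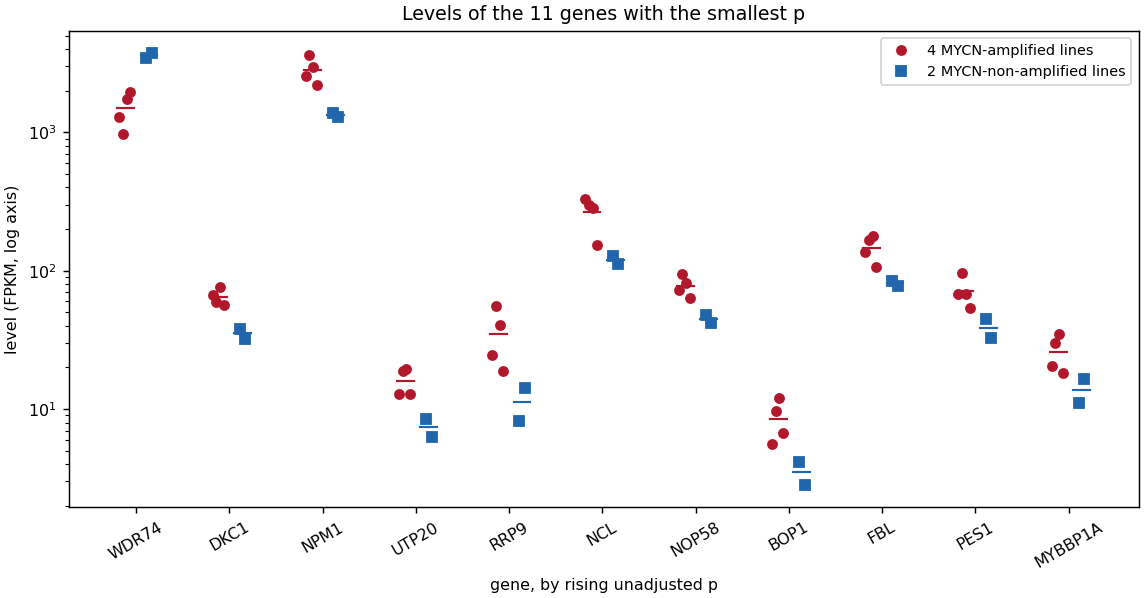
Levels in FPKM on a log axis for the 11 genes with the smallest unadjusted p, with a point for each of the 4 MYCN-amplified lines (red circles) and the 2 MYCN-non-amplified lines (blue squares) and a bar at each group mean. The groups do not overlap in any of the 11, and WDR74 is the one gene that is lower in the MYCN-amplified lines.

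The 6 genes of small nucleolar ribonucleoproteins all leaned the same way. All had a positive log2 fold change under every setting tried, with a median of 0.80, and 4 had an unadjusted p below 0.05, though none passed the test. In 5 of the 6 the groups did not overlap. DKC1 encodes dyskerin, the pseudouridine synthase of the box H/ACA particles. It was at 76.1 FPKM in CHP134, 67.1 in BE(2)-C, 56.6 in SK-N-DZ and 59.8 in Kelly, against 32.2 in SY5Y and 38.2 in SK-N-AS (log2 fold change 0.87, standard error 0.25, adjusted p = 0.203). The spread among the amplified lines was small, at 64.9 ± 8.66 FPKM (SD, n = 4 lines).

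FBL encodes fibrillarin, the methyltransferase of the box C/D particles. It was at 178 FPKM in CHP134, 136 in BE(2)-C, 107 in SK-N-DZ and 166 in Kelly, against 78.0 in SY5Y and 84.7 in SK-N-AS (log2 fold change 0.82, standard error 0.29, adjusted p = 0.260). NOP58, a core protein of the same particles, was at 81.2 FPKM in CHP134, 72.3 in BE(2)-C, 63.9 in SK-N-DZ and 94.98 in Kelly, against 41.7 in SY5Y and 47.6 in SK-N-AS (0.79, standard error 0.26, adjusted p = 0.240). For both, every amplified line was above both others, with SK-N-DZ the nearest to them. NOP56, the partner of NOP58 in these particles, did not share this pattern. It was at 131 FPKM in CHP134, 79.2 in BE(2)-C, 177 in SK-N-DZ and 198 in Kelly, against 80.4 in SY5Y and 114 in SK-N-AS. BE(2)-C had the lowest value of all lines (0.53, standard error 0.41, adjusted p = 0.569). The NOP56 gene holds 3 snoRNA genes and NOP58 4 entries of them.

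RRP9, a protein of the box C/D particle that guides early precursor cleavage, had the widest range of the 43 genes. It was at 40.6 FPKM in CHP134, 24.5 in BE(2)-C, 18.8 in SK-N-DZ and 55.8 in Kelly, against 14.2 in SY5Y and 8.24 in SK-N-AS. No other gene of the 43 exceeded it in log2 fold change, at 1.52 with a standard error of 0.48 (adjusted p = 0.221). NOLC1, a chaperone of these particles, was at 107 FPKM in CHP134, 87.6 in BE(2)-C, 63.2 in SK-N-DZ and 70.3 in Kelly, against 50.7 in SY5Y and 59.5 in SK-N-AS. The gap between SK-N-DZ and SK-N-AS was small beside the spread of the amplified lines (0.54, standard error 0.29, adjusted p = 0.423).

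**Figure D5:**
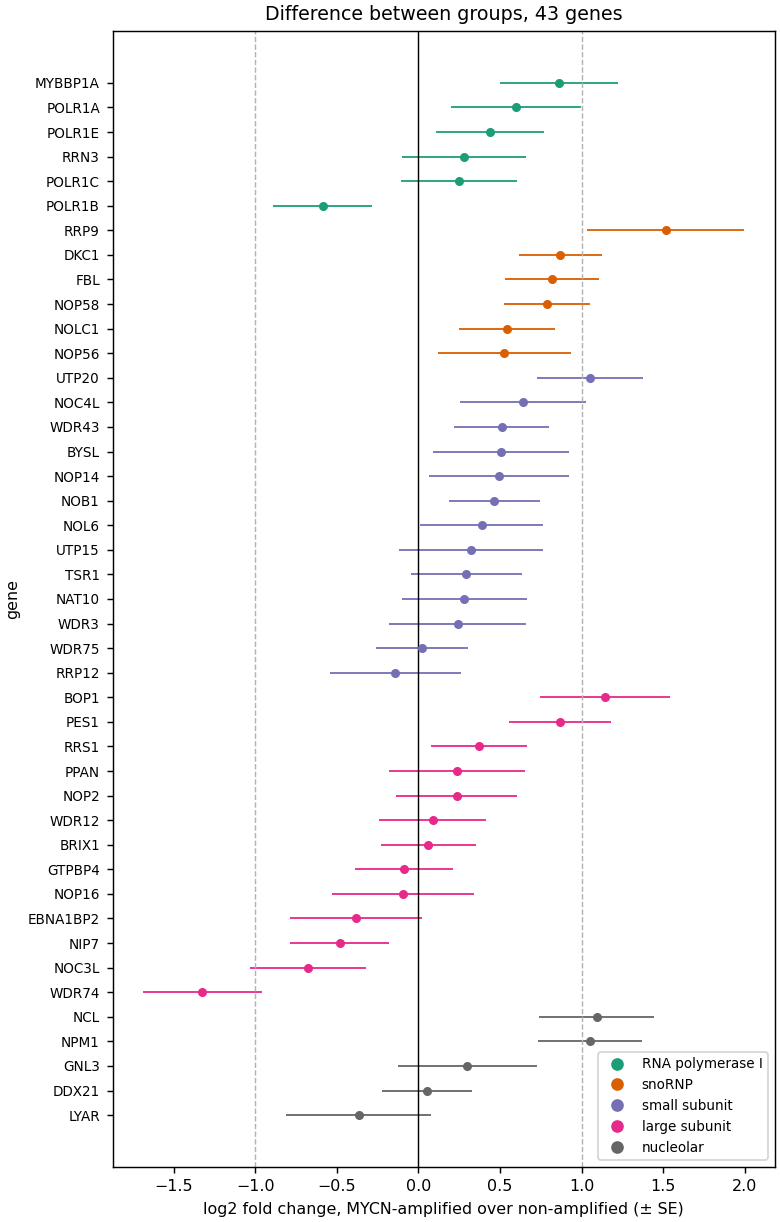
Log2 fold change of each of the 43 genes, MYCN-amplified over MYCN-non-amplified lines, with its standard error from limma as the bar and the role of the gene as colour; dashed lines mark 1 and -1. The 6 genes of small nucleolar ribonucleoproteins lie between 0.53 and 1.52, and the 13 large subunit genes between -1.32 and 1.14.

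Of the 6 genes of RNA polymerase I transcription, 5 had a positive log2 fold change (median 0.36), and in 1 the groups did not overlap. That was MYBBP1A, which codes for a nucleolar protein that binds MYB and takes part in precursor RNA synthesis. It was at 35.1 FPKM in CHP134, 20.4 in BE(2)-C, 18.4 in SK-N-DZ and 29.8 in Kelly, against 16.6 in SY5Y and 11.1 in SK-N-AS (0.86, standard error 0.36, adjusted p = 0.327). POLR1A, the largest subunit of the polymerase, was at 19.5 FPKM in CHP134, 10.9 in BE(2)-C, 15.6 in SK-N-DZ and 8.60 in Kelly, against 6.94 in SY5Y and 10.2 in SK-N-AS. Here Kelly, with the most MYCN, was the lowest amplified line and lay below SK-N-AS (0.60, standard error 0.40, adjusted p = 0.510).

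POLR1B, the second largest subunit, had a negative log2 fold change. Its locus, which merges CHCHD5 and 2 further names, was at 37.5 FPKM in CHP134, 24.5 in BE(2)-C, 27.3 in SK-N-DZ and 21.3 in Kelly, against 37.2 in SY5Y and 45.0 in SK-N-AS (-0.59, standard error 0.30, adjusted p = 0.405). CHP134 barely overlapped SY5Y, and the share of POLR1B in the merged value is unknown. POLR1E, a further subunit in a merged locus, was at 38.3 FPKM in CHP134, 24.6 in BE(2)-C, 19.9 in SK-N-DZ and 26.6 in Kelly, against 16.7 in SY5Y and 22.8 in SK-N-AS (0.44, standard error 0.33, adjusted p = 0.562). RRN3, the factor that brings the polymerase to the promoter, was at 34.7 FPKM in CHP134, 18.8 in BE(2)-C, 16.9 in SK-N-DZ and 14.7 in Kelly, against 17.0 in SY5Y and 15.9 in SK-N-AS. CHP134 stood above the other 5 lines, which lay close together (0.28, standard error 0.38). GENCODE 44 names 5 pseudogenes after RRN3. POLR1C, shared with RNA polymerase III, lay between 23.5 FPKM in SK-N-DZ and 45.3 FPKM in Kelly (0.25).

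Of the 13 small subunit genes, 12 were positive in log2 fold change (median 0.39), and in 3 the groups did not overlap. UTP20, a large scaffold protein of the early particle, was at 19.5 FPKM in CHP134, 12.8 in BE(2)-C, 12.8 in SK-N-DZ and 18.9 in Kelly, against 6.28 in SY5Y and 8.46 in SK-N-AS. The amplified lines formed a higher and a lower pair, both above the other lines (1.05, standard error 0.33, adjusted p = 0.216). WDR43, which joins precursor RNA synthesis to processing, lies in a locus merged with SNORD53 and SNORD92 and was at 50.2 FPKM in CHP134, 57.3 in BE(2)-C, 41.5 in SK-N-DZ and 71.8 in Kelly, against 35.7 in SY5Y and 40.1 in SK-N-AS. SK-N-DZ and SK-N-AS were nearly equal (0.51, standard error 0.29, adjusted p = 0.446). NOB1, the endonuclease that makes the last cut at the end of the small subunit RNA, was at 13.7 FPKM in CHP134, 13.7 in BE(2)-C, 10.3 in SK-N-DZ and 12.3 in Kelly, against 8.20 in SY5Y and 9.53 in SK-N-AS. The groups were apart but close (0.47, standard error 0.28, adjusted p = 0.470).

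The other small subunit genes overlapped between the groups. NOC4L, a factor of nuclear export and assembly of the small subunit, was at 16.7 FPKM in CHP134, 8.69 in BE(2)-C, 9.00 in SK-N-DZ and 10.9 in Kelly, against 5.16 in SY5Y and 9.01 in SK-N-AS (0.64, standard error 0.39, adjusted p = 0.470). BYSL, a late assembly factor, was at 23.1 FPKM in CHP134, 9.24 in BE(2)-C, 13.2 in SK-N-DZ and 10.6 in Kelly, against 7.72 in SY5Y and 10.7 in SK-N-AS (0.51, standard error 0.41, adjusted p = 0.589). CHP134 was the highest and SY5Y the lowest line for both. NOP14 had its high values in CHP134 (21.7 FPKM) and BE(2)-C (16.6 FPKM) and lay between 8.32 FPKM in Kelly and 10.3 FPKM in SK-N-AS in the other 4 lines (0.49). In UTP15 and WDR3, both parts of early processing complexes, SK-N-DZ was the lowest of all lines (8.02 and 31.5 FPKM). RRP12, in a locus with a second gene name, was the one gene of this set with a negative value (-0.14). It was 0.0034 after quantile normalization and 0.28 with libraries scaled to equal sums. Equal sums moved the median of all tested loci to 0.31 from -0.09. The log2 fold changes of NOL6, NAT10, TSR1 and WDR75 lay between 0.02 in WDR75 and 0.39 in NOL6.

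The large subunit genes were divided. Of 13 genes, 7 had a positive and 6 a negative log2 fold change, with a median of 0.06, which was -0.09 over loci with 1 gene name and -0.18 among the DMEM lines. It was also negative without CHP134 (-0.06), without Kelly (-0.05) and without SY5Y (-0.12). It was 0.18 when SK-N-AS was left out and 0.21 when SK-N-DZ was. With libraries scaled to equal sums it was 0.50 and 10 of 13 were positive, where 66.9% of all tested loci were. It lay 0.19 above the median of all tested loci there, and 0.15 above it on the deposited values. PES1 and BOP1 encode pescadillo and its partner, which with WDR12 form a complex needed for maturation of the large subunit RNA. PES1 was at 67.3 FPKM in CHP134, 68.3 in BE(2)-C, 53.4 in SK-N-DZ and 96.3 in Kelly, against 32.4 in SY5Y and 44.5 in SK-N-AS (0.87, standard error 0.31, adjusted p = 0.265). BOP1 was at 12.1 FPKM in CHP134, 5.63 in BE(2)-C, 6.71 in SK-N-DZ and 9.76 in Kelly, against 2.82 in SY5Y and 4.17 in SK-N-AS (1.14, standard error 0.40, adjusted p = 0.259). Both were above SY5Y and SK-N-AS in every amplified line. The deposited locus of PES1 is far wider than the gene, from 30279144 to 31530682 of chromosome 22 in hg19, where GENCODE 44 places the gene at 30972612 to 31003070. PES1 is not alone in this, as the loci of NOC3L, NIP7, BYSL, TSR1, GNL3 and WDR3 also reach far beyond their genes. WDR12, the third member of the complex, was at 38.5 FPKM in CHP134, 47.9 in BE(2)-C, 27.1 in SK-N-DZ and 53.4 in Kelly, against 35.5 in SY5Y and 40.7 in SK-N-AS. SK-N-DZ was the lowest line, and the groups overlapped (0.09, standard error 0.33, adjusted p = 0.921).

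WDR74, which helps a remodelling enzyme act on the large subunit precursor, was the gene with the lowest p and ran the other way. Its locus was at 1743 FPKM in CHP134, 1288 in BE(2)-C, 1961 in SK-N-DZ and 969 in Kelly, against 3746 in SY5Y and 3460 in SK-N-AS (log2 fold change -1.32, standard error 0.37, adjusted p = 0.188). The locus spans 62599706 to 62609281 of chromosome 11 in hg19 and ends where RNU2-2P, a small nuclear RNA gene, ends on the same strand (62609091 to 62609281). The level was far above that of every other assembly factor of the list, the highest of which was 114 FPKM for EBNA1BP2 in CHP134. RNU4-1 was likewise lower in the amplified lines, at 80350 FPKM in CHP134, 161063 in BE(2)-C, 113883 in SK-N-DZ and 107017 in Kelly, against 164545 in SY5Y and 216081 in SK-N-AS. That is the same direction as WDR74. The part of RNU2-2P in the value of WDR74 was not tested. Without WDR74 the median log2 fold change of the other 42 genes was 0.35, with 34 positive.

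NOC3L, a factor of early large subunit assembly, was at 13.6 FPKM in CHP134, 17.9 in BE(2)-C, 16.4 in SK-N-DZ and 28.8 in Kelly, against 25.99 in SY5Y and 34.1 in SK-N-AS. Kelly overlapped SY5Y (-0.68, standard error 0.35, adjusted p = 0.410). NIP7, which acts in processing of the precursor RNA, was at 28.6 FPKM in CHP134, 22.8 in BE(2)-C, 19.2 in SK-N-DZ and 19.3 in Kelly, against 25.5 in SY5Y and 38.0 in SK-N-AS (-0.48, standard error 0.30, adjusted p = 0.485). For both, SK-N-AS had the highest value of all lines. EBNA1BP2 (-0.38), NOP16 (-0.09) and GTPBP4 (-0.09) were also negative. Their values were 0.058, 0.34 and 0.35 with libraries scaled to equal sums. That setting moved the median of all tested loci to 0.31 from -0.09. RRS1, in a merged locus, was between 15.6 and 24.5 FPKM in the amplified lines, against 14.5 FPKM in SY5Y and 15.3 in SK-N-AS, so that the groups did not overlap but nearly touched (0.37). NOP2, PPAN and BRIX1 had overlapping groups and log2 fold changes of 0.24, 0.24 and 0.06.

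Of 104 further ribosome biogenesis genes, all had a tested locus, and none was called in either direction. Their median log2 fold change was 0.18, where that of all tested loci was -0.09. Of the 104, 69 were positive (66.3%, against 44.4% of all tested loci). At an unadjusted p below 0.05, 10 were higher and 3 lower, where 5.48% and 9.46% of all tested loci were. Both together made 12.5% of the 104 and 14.9% of all tested loci. In 20 (19.2%) the amplified lines lay above both others, where 10.5% of all tested loci did. In 7 (6.73%) they lay below both, where 16.4% did. The lowest p was that of MDN1, the giant ATPase that strips factors from the large subunit precursor. It was at 11.3 FPKM in CHP134, 13.4 in BE(2)-C, 10.1 in SK-N-DZ and 13.2 in Kelly, against 4.97 in SY5Y and 6.49 in SK-N-AS (1.01, standard error 0.29, adjusted p = 0.203). RRP7A, of the small subunit pathway, was at 29.6 FPKM in CHP134, 14.5 in BE(2)-C, 13.6 in SK-N-DZ and 35.4 in Kelly, against 5.06 in SY5Y and 8.61 in SK-N-AS (1.62, adjusted p = 0.208). NHP2L1, a protein of the box C/D particles and of the spliceosome, was at 90.2 FPKM in CHP134, 123 in BE(2)-C, 56.1 in SK-N-DZ and 145 in Kelly, against 49.3 in SY5Y and 47.0 in SK-N-AS (1.01, adjusted p = 0.299).

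RRP1B, a nucleolar protein of large subunit processing, was at 30.1 FPKM in CHP134, 31.3 in BE(2)-C, 18.9 in SK-N-DZ and 25.2 in Kelly, against 12.2 in SY5Y and 13.4 in SK-N-AS (0.99, adjusted p = 0.212). LAS1L, a factor of large subunit maturation, was at 26.2 FPKM in CHP134, 24.5 in BE(2)-C, 26.6 in SK-N-DZ and 29.2 in Kelly, against 17.1 in SY5Y and 15.5 in SK-N-AS (0.69, adjusted p = 0.265). In both the groups were apart. POLR1D, a subunit shared by RNA polymerases I and III, went the other way, at 61.0 FPKM in CHP134, 54.0 in BE(2)-C, 50.5 in SK-N-DZ and 60.1 in Kelly, against 88.8 in SY5Y and 110 in SK-N-AS (-0.81, standard error 0.24, adjusted p = 0.212). All 4 amplified lines were below both others.

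The counts depended on single lines. Without SK-N-AS the log2 fold change was positive in 38 of the 43 genes (median 0.57), and without SY5Y in 28 (median 0.27). These medians lay 0.63 and 0.36 above the median of all loci tested in the same setting. Among the 4 DMEM lines it was positive in 23 (median 0.10, where the median of all loci tested was -0.21). Of the 43 genes, 25 overlap a gene on the other strand in GENCODE 44, whose reads these unstranded libraries do not separate, and 6 lie in loci with several gene names. Some loci with 1 gene name also reach far beyond the gene, such as those of PES1, NOC3L and NIP7. A gene of a snoRNA or a related small RNA lies inside 10 of the 43, among them GNL3 with 5 entries and DKC1 with 2.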

How the data were processed

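The libraries were made from ribosome-depleted RNA without poly-A selection and sequenced in a shared lane. The labels name each cell line, and its MYCN status was taken from the methods of the study. STAR alignment to hg19 and gene counts on Gencode V18 are what the methods of the study describe. The deposited table holds merged loci in place of those counts, made by a step not given in the sources used here. Values in the deposited table are taken to be FPKM, since they are not whole and their library sums differ. An empty line, 1 in all, was not used here. The number of reads is unknown, so that no counting interval can be given.

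The 16223 loci with a gene name were filtered at 1 FPKM in at least 2 lines, and the 12870 left were tested with limma 3.58.1 (R 4.3.3; eBayes with a trend, no covariates) after taking log2(FPKM + 0.5), in place of the count test of the study, which needs counts. The pseudocount makes the fold change of a low gene smaller than it is. On simulated data over the 12870 loci of this comparison, the share of truly changed loci that were called was 11.2% at a log2 change of 1.5, 64.8% at 3 and 78.8% at 4. Each simulated locus took its spread at random from all loci, whatever its level. The median of the mean levels was 27.0 FPKM in the 43 genes and 8.45 in all tested loci, so that these shares are not those of the 43 genes. Alternatives varied the pseudocount, filter, scaling, variance model, merged loci, threshold, medium and lines. Spans in hg19 and overlaps came from GENCODE 44 on that build, and promoters from RefSeq. The 43 genes, their roles and the further 104 genes were chosen with earlier results of these data known. Values per line are given for MYCN, MYC and, in each role, the up to 5 genes with the smallest p, and for the 6 such genes among the further 104; other genes are summarised, and those named beyond this rule were chosen after their values were seen. Python 3.11.15 and matplotlib 3.10.9 were used.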

Additional observations from a re-analysis of the deposited data

Results flagged for a closer look

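Among the 4 MYCN-amplified lines, 1 line stood apart from the other 3 in 2 of the 43 genes by Dixon's test on log2(FPKM + 0.5), in which chance marks about 1 group in 20. WDR75, of the early small subunit complex, was at 35.0 FPKM in SK-N-DZ, and the gap to the next line took 0.897 of the range of the amplified lines. RRP12, an export and assembly factor, was at 19.3 FPKM in Kelly, with a gap of 0.885 of the range.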

How the results depend on the processing

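No gene of the 43 was called under any of the 19 alternative settings, where the lowest adjusted p was 0.107 (limma, DKC1 with libraries scaled to equal sums) and between 2 and 17 genes had an unadjusted p below 0.05. The median log2 fold change of 0.32 was 0.75 with libraries scaled to equal sums, a setting that moved the median of all tested loci to 0.31 from -0.09, so that the distance between the 43 genes and all loci was 0.45 there and 0.42 on the deposited values. That setting also changed the calls over all loci to 20 higher and 23 lower, against 18 higher and 47 lower. Leaving out 1 line gave medians between 0.24 and 0.57 and between 28 and 38 positive genes. Those medians lay between 0.36 and 0.63 above the medians of all tested loci. A lone SK-N-AS or SY5Y was then assumed to vary like the other lines. The sum without RNU4-1 and RNU4-2 (median 0.31) was a setting chosen after seeing the data, as was leaving out WDR74. The unknown depth limits what can be said of small differences, and 4 lines against 2 leave most changes of the size seen here below the threshold.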
